A study of Canis lupus familiaris with 10 samples.

Results

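Transcripts of the TGF-beta pathway were examined in canine cutaneous histiocytoma (CCH), a skin tumour of Langerhans cell origin that usually regresses while lymphocytes enter it. The genes were taken by name as the ligands TGFB1, TGFB2 and TGFB3, the receptors TGFBR1 and TGFBR2, and the signal transducers SMAD2, SMAD3 and SMAD4. Of these 8 names, 4 had a row among the 800 genes of the hybridisation panel, namely TGFB1, TGFB2, SMAD2 and SMAD3, so the core of the pathway was covered by 2 ligands and 2 SMADs. TGFB3, both receptors and SMAD4 were not analysed here. RNA came from formalin-fixed, paraffin-embedded tumours of pet dogs of various breeds, with 5 tumours of group 1 in the Cockerell and Slauson scheme (early CCH) and 5 of group 3, labelled as enriched in lymphocytes (late CCH). The dogs were 0.5 to 5 years old in the early group, where 1 age was not given, and 1.5 to 9 years old in the late group, with males and females in both groups. No dog gave more than 1 tumour, no sample was pooled, and treatment of the dogs was not stated. RNA was taken from entire tumour cross sections freed of neighbouring tissue, so each value is a mixture of tumour cells, infiltrating leukocytes and stroma, in which more cells of a type and more RNA per cell cannot be told apart.

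TGF-beta ligands are secreted in a latent form, are released by integrins or proteases, and bind a pair of receptor kinases. The receptor then phosphorylates SMAD2 and SMAD3, which join SMAD4 and enter the nucleus. SMAD3 binds DNA itself, whereas the main form of SMAD2 does so only poorly, and the target genes of the 2 proteins overlap in part. TGF-beta1 is the main ligand made by leukocytes. It restrains T cells, and Langerhans cells need it to develop and to stay in the epidermis, so the pathway concerns both the tumour cell lineage and the lymphocytes.

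Recovered barcode counts, that is normalized values divided by the worth of 1 count in that sample, summed to between 484696 and 823763 in early and between 945399 and 1253083 in late CCH. Background, taken per sample from the 8 negative probes (mean plus 2 SD) and expressed in normalized counts, lay between 21.8 and 38.2 in early and between 19.2 and 26.9 in late CCH. The DV200 value, the percentage of RNA fragments above a length limit, was 64.5 to 71.2 in early and 71.2 to 75.8 in late CCH. For late 5 the label used here differs from the RNA quality table of the study, and its value, shared with late 4, is the lowest of the late stage. The stages met only at 71.2, in early 3, late 4 and late 5. A fit with DV200 as a covariate can therefore hardly part DV200 from stage. By the study's sample list, matched on stage, breed and age, all early tumours were hybridised on a single cartridge and all late tumours on another. The late blocks had also been stored longer, so that stage cannot be told apart from cartridge or block age in any comparison between stages. The ratio of the signals of the 2 strongest positive control probes differed between the cartridges, at 2.09 to 2.17 in early and 2.72 to 2.84 in late samples. The Langerhans cell marker CD207, which encodes langerin, exceeded background in 1 early and 1 late tumour, and CD1C in 0 of 5 early and 5 of 5 late tumours. Background was mostly lower in late samples, and the CD1C means were 20.4 in early and 31.6 in late CCH. The other 5 listed Langerhans cell markers on the panel, CDH1, EPCAM, FLT3, FCER1A and ITGAX, were above background in all 10 tumours. CDH1 and EPCAM were also listed as keratinocyte markers. CD1A6, on the panel but not on the list, exceeded background in 4 early and 5 late tumours.

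Of the 4 genes, SMAD3 was clearly higher in late CCH, TGFB2 was higher in late CCH by a less strict criterion, and TGFB1 and SMAD2 had slightly higher means in early CCH. All 4 genes passed the filter on low values, a mean of at least 20, which kept 761 panel genes for the limma fit. To be called, a gene had to change at least 2-fold with a p of at most 0.05 after Benjamini-Yekutieli (BY) adjustment. By this rule 1 of the 4 genes was called, SMAD3, higher in late CCH, where the rule called 11.2% of all tested genes, 9.20% higher in late and 1.97% higher in early CCH. By Benjamini-Hochberg (BH) adjustment at the same limit without a fold criterion, 2 of the 4 genes passed, SMAD3 and TGFB2, both higher in late CCH, against 35.7% of all tested genes, 27.3% higher in late and 8.41% higher in early CCH. The stages did not overlap for 3 of the 4 genes, SMAD3 and TGFB2 with late above early and SMAD2 with early above late. Over all tested genes 24.6% did not overlap, 19.2% higher in late and 5.39% higher in early CCH. With 4 genes, these shares cannot set the pathway apart from the panel. Log2 fold changes are given as early minus late, so that a negative value means a higher level in late CCH.

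SMAD3, the DNA-binding transducer, had 33.85, 71.2, 67.9, 72.5 and 56.8 normalized counts in early tumours 1 to 5 and 285, 207, 198, 182 and 159.9 in late tumours 1 to 5. The lowest late tumour thus had more than 2 times the highest early one, and the 2 stages were far apart relative to the spread within either. Mean levels were 60.5 ± 16.1 for the early stage (SD, n = 5) and 206 ± 47.6 for the late stage (SD, n = 5), a log2 fold change of -1.78 (SE 0.26, 95% interval -2.34 to -1.21, limma BY adjusted p = 0.0107). This is a 3.43-fold higher level in late CCH on the log2(value + 1) scale, which understates changes of low genes. Before scaling, the probe had been counted 30 to 44 times in early and 148 to 230 times in late tumours, where the totals were also higher in late tumours. All early values were above background, but by no more than 2.09 times, whereas late values were 7.68 to 13.9 times background. After subtraction of the mean of the negative probes the log2 fold change was -2.21 (limma BY adjusted p = 0.00793). The SMAD3 call was kept in each of the 10 fits that left out 1 tumour, with log2 fold changes from -1.86 to -1.58. It was lost with DV200 as a covariate (-1.62, SE 0.41, limma BY adjusted p = 0.353, BH adjusted p = 0.0489) and with a replicate block (-1.78, limma BY adjusted p = 0.107).

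SMAD2, the partner of SMAD3 downstream of the same receptor, had 1401, 1371, 1575, 1847 and 1861 normalized counts in early tumours 1 to 5. In late tumours 1 to 5 it had 1327, 1236, 1358, 1123 and 1069. The lowest early value, in early 2, lay just above the highest late value, in late 3, and the 2 stages met there with hardly a gap. The means were 1611 ± 235 (SD, n = 5) and 1223 ± 125 (SD, n = 5), with a log2 fold change of 0.39 (SE 0.14, 95% interval 0.076 to 0.71) that narrowly missed the BH limit (limma BH adjusted p = 0.0539). Before scaling, the counts overlapped, with 808 to 1324 in early and 990 to 1258 in late tumours. The size of the SMAD2 difference depended on the scaling. After scaling to the geometric mean of the tested genes it was 0.78 (limma BH adjusted p = 0.00651), and the median change over the tested genes moved in the same fit from -0.18 to 0.21. Relative to that median, SMAD2 was 0.57 higher in early CCH with the deposited scaling and 0.58 higher with the geometric mean.

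**Figure D1:**
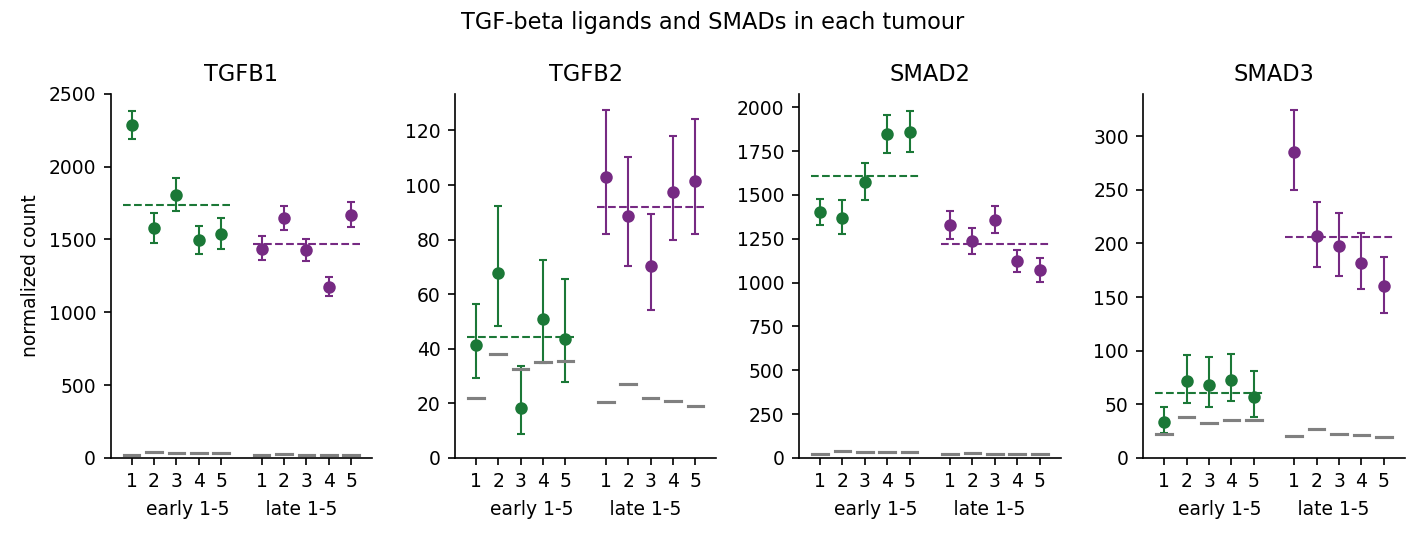
Normalized counts (linear axes from 0, a different range for each gene) of TGFB1, TGFB2, SMAD2 and SMAD3 in early tumours 1 to 5 (green) and late tumours 1 to 5 (purple). Bars are 95% Poisson intervals of counting only, dashed lines are stage means (60.5 and 206 for SMAD3) and grey ticks are the background of each sample. All late SMAD3 values lie above all early ones, TGFB2 in early tumours lies near background and below it in early 3, and the stages overlap for TGFB1.

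The ratio of SMAD2 to SMAD3 within a tumour was computed after adding 1 to each value, so that the scaling of the tumour has little effect on it. On the log2 scale it was 5.33, 4.25, 4.52, 4.65 and 5.01 in early tumours 1 to 5 and 2.21, 2.57, 2.77, 2.62 and 2.73 in late tumours 1 to 5. The stages did not overlap, and the late tumours lay close together. The means were 4.75 ± 0.42 (SD, n = 5) and 2.58 ± 0.22 (SD, n = 5), which differed by 2.17 or 4.49-fold. SMAD2 was higher in every early tumour and SMAD3 in every late tumour, so the ratio could not overlap between the stages. The exact two-sided permutation p of 0.00794, the smallest that 5 against 5 samples allow, was thereby fixed and adds no support. The difference stayed between 2.02 and 2.29 when each tumour was left out in turn, and was 2.02 with 10 added in place of 1 and 2.60 after subtraction of the mean of the negative probes. The ratio compares how far the 2 probes moved between stages, not the amounts of the 2 transcripts, since probes differ in efficiency.

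TGFB2, a ligand isoform made largely outside the blood cell lineages, was counted least often among the 4 genes in most tumours. It had 41.3, 67.85, 18.4, 51.1 and 43.6 normalized counts in early tumours 1 to 5 and 103, 88.5, 70.2, 97.5 and 102 in late tumours 1 to 5. The lowest late tumour, late 3, was only slightly above the highest early tumour, early 2, and the value of early 3 was below its background. The other 4 early tumours were 1.23 to 1.89 times background and the late tumours 3.21 to 5.30 times. The means were 44.4 ± 17.9 (SD, n = 5) and 92.1 ± 13.5 (SD, n = 5), with a log2 fold change of -1.14 (SE 0.31, 95% interval -1.83 to -0.44, limma BH adjusted p = 0.0186) that did not pass the stricter limit (limma BY adjusted p = 0.134). Because early 3 was below background, the change was also computed with all values raised to the highest background of any sample, which gave -0.93 (limma BH adjusted p = 0.00389, BY adjusted p = 0.0281) and stayed under the 2-fold limit. Subtraction of the mean of the negative probes instead gave -1.99 (limma BH adjusted p = 0.0346, BY adjusted p = 0.249), so the size of the TGFB2 difference rested on how background was treated. TGFB2 no longer passed the BH limit under geometric mean scaling (-0.75, limma BH adjusted p = 0.0789), quantile normalization (-0.81, 0.123) and with DV200 as a covariate (-1.68, 0.0539). The log2 fold change without early 3 was -0.86, the smallest of the 10 fits that left out 1 tumour, and the BH limit was passed in all 10.

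TGFB1, the main ligand of leukocytes, was well measured in every tumour, at 41.3 to 105 times background, and did not pass either test. Its normalized counts were 2286, 1576, 1806, 1494 and 1537 in early tumours 1 to 5 and 1437, 1647, 1427, 1175 and 1669 in late tumours 1 to 5. The stages overlapped broadly, with early 1 the highest and late 4 the lowest tumour. The means were 1740 ± 328 (SD, n = 5) and 1471 ± 200.5 (SD, n = 5), and the log2 fold change of 0.23 had a 95% interval from -0.12 to 0.59 (limma BH adjusted p = 0.280). Relative to the panel median the value was 0.41 with the deposited scaling and 0.42 with the geometric mean. In absolute terms it was 0.62 under both geometric mean scaling and quantile normalization (limma BH adjusted p = 0.0436 and 0.0149), so whether TGFB1 passed the BH limit rested on the scaling.

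The ratio of the 2 ligands also differed between the stages. The log2 ratio of TGFB1 to TGFB2 was 5.76, 4.52, 6.54, 4.84 and 5.11 in early tumours 1 to 5 and 3.79, 4.20, 4.33, 3.58 and 4.03 in late tumours 1 to 5. All early ratios lay above all late ratios, although early 2 came near to late 3, and the highest ratio, in early 3, rested on the TGFB2 value below background. The means were 5.35 ± 0.81 (SD, n = 5) and 3.98 ± 0.30 (SD, n = 5), which differed by 1.37 (exact two-sided permutation p = 0.00794, with 0.00794 after BH adjustment over the 2 ratios computed). With values raised to the common background the difference was 1.18, and after subtraction of the mean of the negative probes it was 2.22. Without early 3 it was 1.07, the lowest value when each tumour was left out.

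**Figure D2:**
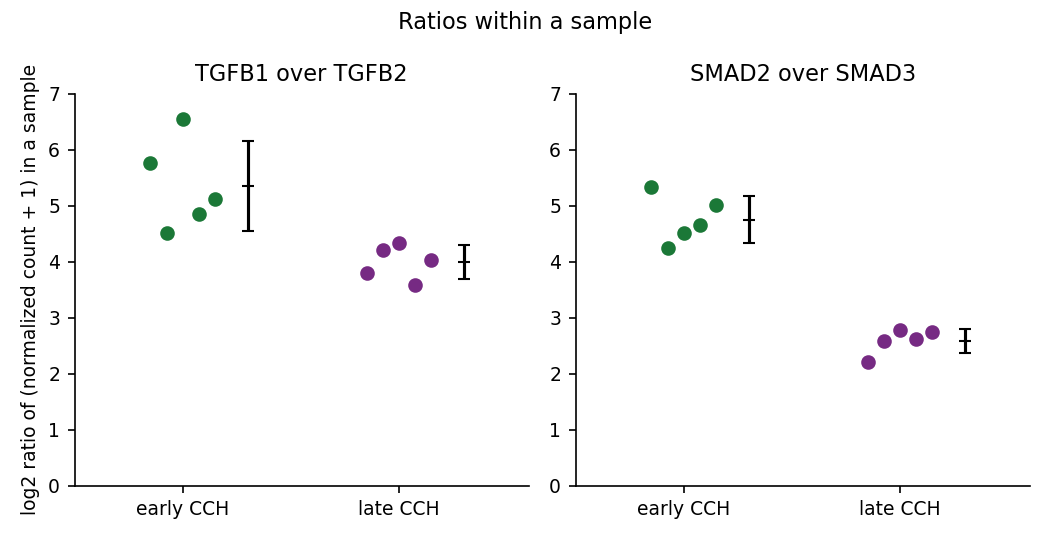
Log2 ratio of the normalized counts of 2 genes in the same tumour, after adding 1 to each (vertical axis), for TGFB1 over TGFB2 and SMAD2 over SMAD3, with 1 point per tumour in early (green) and late CCH (purple) and black marks for mean and SD (n = 5). Early tumours lie above late tumours in both panels, and the gap is wider for SMAD2 over SMAD3 (means 4.75 and 2.58).

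The spread within a stage set limits on each of these comparisons. For the abundant genes counting error was small, with a median SD of 0.047 on the log2 scale for TGFB1 in early CCH against a spread between tumours of 0.25. For SMAD3 the same values were 0.24 and 0.45 in early CCH and 0.11 and 0.31 in late CCH. TGFB2 was counted 10 to 40 times per early tumour and had a counting SD of 0.26 and a spread of 0.68 on the log2 scale in early CCH, the largest of the 4 genes. That spread includes the value of early 3 below background. Among early tumours SMAD3 differed 2.14-fold between early 1 and early 4 after scaling. Before scaling it had been counted 32 and 44 times there, at 1.55 and 2.06 times background. TGFB1 and SMAD2 differed by no more than 1.53-fold within either stage.

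**Figure D3:**
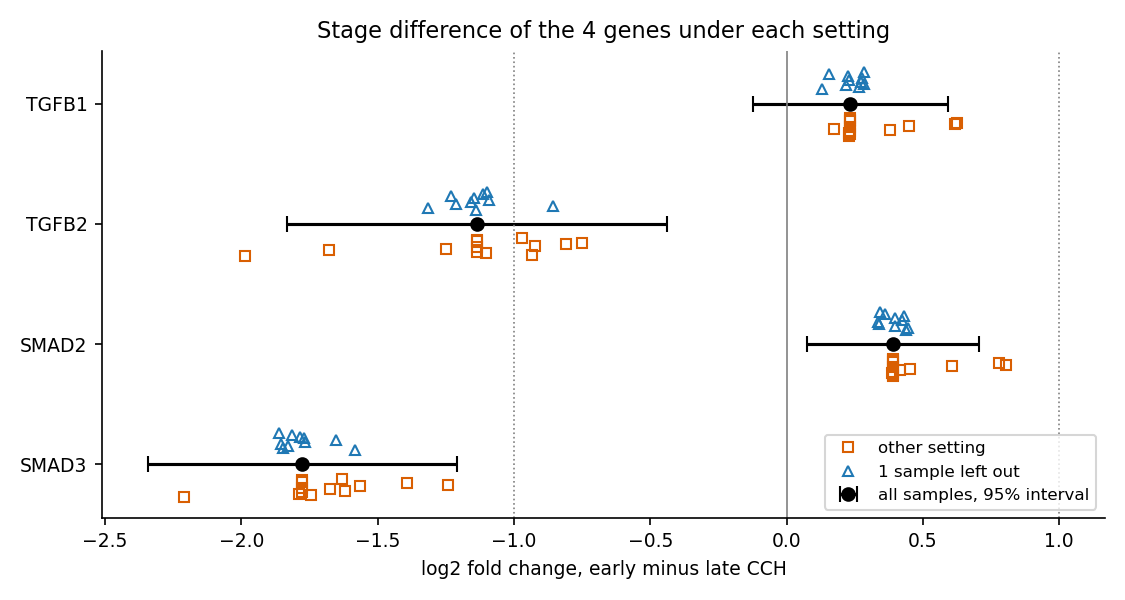
Log2 fold change, early minus late CCH (horizontal axis), of the 4 genes with all samples (black, bar is the 95% interval), with 1 sample left out (blue triangles, 10 per gene) and under 13 other settings of scaling, filter, model or background (orange squares). Dotted lines mark a 2-fold change. SMAD3 stays between -2.21 and -1.24 and TGFB1 between 0.13 and 0.62.

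The panel genes with the most similar profile were sought for each of the 4 genes as those with the smallest root mean square difference in log2 level over the 10 tumours, after centring each gene on its own mean. For SMAD3 they were DLA-64 (0.24), a dog MHC class I gene, IRF1 (0.26), a transcription factor induced by interferon, and PLCG1 (0.29), a phospholipase activated downstream of antigen and growth factor receptors. The median over all tested genes was 0.99 for SMAD3. All 3 were called higher in late CCH, which follows from choosing them by likeness to a profile that differs between the stages. Their means in early and late CCH, in that order, were 1338 and 3924 for DLA-64, 1038 and 3179 for IRF1 and 212 and 826 for PLCG1. For TGFB2 they were CYBB (0.28), an oxidase subunit of phagocytes, the kinase gene SRC (0.37) and CD34 (0.38), a surface protein of endothelial and progenitor cells, against a median of 0.88. For SMAD2 they were the autophagy gene ATG5 (0.11), the mitochondrial ribosome gene MRPL19 (0.11) and NFATC3 (0.13), a transcription factor, against a median of 0.60. For TGFB1, which varied little, C1QBP, LGALS1 and PSMC4 came nearest with differences of 0.16 to 0.17 against a median of 0.61. SMAD2 and TGFB1 had flat profiles, which deviated from their own means by only 0.25 and 0.24, against 0.73 for TGFB2 and 0.95 for SMAD3.

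The wider pathway was covered sparsely. Of 124 genes listed in 6 groups around the pathway, 33 were on the panel and 32 passed the filter. Their median log2 fold change was -0.13, beside -0.18 over all tested genes. By BH adjustment 6 of the 32 genes passed, beside 272 of all 761, with the higher level in early CCH for 4 and in late CCH for 2. By the BY and 2-fold rule 1 gene in each direction was called, RUNX1 in late and FLT3 in early CCH. The same rule called 70 of all 761 genes higher in late and 15 higher in early CCH. None of the 20 listed genes for bone morphogenetic proteins and other superfamily ligands was on the panel, and of 13 further receptors only ACVR1, an activin type I receptor, was measured, with a log2 fold change of 0.070 (limma BH adjusted p = 0.854).

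Among 7 genes that hold or release latent TGF-beta, 1 passed the BH limit, higher in early CCH, and 0 were called (median log2 fold change -0.12). This was ITGAV, the integrin subunit shared by the receptors that free TGF-beta from its latent complex. It had 2193, 2873, 1867, 1985 and 1900.5 normalized counts in early tumours 1 to 5 and 1872, 1550.4, 1320.2, 1444 and 1311 in late tumours 1 to 5. The stages overlapped slightly, since early 3 lay just under late 1, and the log2 fold change was 0.52 (SE 0.16, limma BH adjusted p = 0.0308). ITGAV passed the BH limit in only 4 of the 10 fits that left out 1 tumour, and missed it without early 1 or 2 or without late 2, 3, 4 or 5. It also missed the limit with DV200 as a covariate (limma BH adjusted p = 0.236). ITGB1, ITGB3, THBS1, MMP9, PLAU and NRP1 did not pass, with log2 fold changes from -1.04 for the plasminogen activator PLAU to 0.12 for ITGB3.

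Among 4 inhibitors and cofactors, RUNX1 was called. It encodes a DNA-binding factor of blood cells that can act together with SMADs. Its normalized counts were 253, 612, 404, 341 and 627 in early tumours 1 to 5 and 1034, 1078, 861, 954 and 1030.5 in late tumours 1 to 5. Every late tumour exceeded every early tumour, and the log2 fold change was -1.23 (SE 0.25, limma BY adjusted p = 0.0353). The RUNX1 call was less stable than that of SMAD3. It held in 2 of the 10 fits that left out 1 tumour, those without early 2 and without early 5, and in 8 of 13 other settings. The call was lost under geometric mean scaling (-0.84, limma BY adjusted p = 0.0874), quantile normalization (-0.81, 0.0854) and median of ratios scaling (-1.01, 0.0618), and also with DV200 as a covariate (-1.62, 0.281) and with a replicate block (-1.23, 0.121). The acetyltransferase genes EP300 and CREBBP, which SMADs recruit, and MAP3K7, the kinase of a branch that does not use SMADs, had log2 fold changes of 0.15, 0.24 and 0.23 and did not pass the BH limit.

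Of 12 known transcriptional targets on the panel, 11 were tested, 2 passed the BH limit, both higher in early CCH, and 0 were called (median log2 fold change -0.23). Both, MYC and VIM, were called under geometric mean scaling (1.38 and 1.37, limma BY adjusted p = 0.0276 and 0.0302), quantile normalization and median of ratios scaling. With DV200 as a covariate neither passed the BH limit (limma BH adjusted p = 0.0960 and 0.228). MYC, which TGF-beta represses in epithelial cells, had 1118, 711, 993, 1262 and 1262 normalized counts in early tumours 1 to 5 and 491, 540, 615, 393 and 620.0 in late tumours 1 to 5. The stages did not overlap, and the log2 fold change of 1.00 (limma BY adjusted p = 0.0353) fell just short of the 2-fold limit. VIM, the intermediate filament gene of mesenchymal cells and leukocytes, was 68048 ± 14198 in early CCH (SD, n = 5) and 35078 ± 10128 in late CCH (SD, n = 5), also without overlap (log2 fold change 0.98, limma BH adjusted p = 0.0114). The matrix genes COL1A1, COL3A1 and FN1 had log2 fold changes of -0.41, -0.26 and -0.82 with 95% intervals that included 0 (limma BH adjusted p = 0.636, 0.789 and 0.305). The cell cycle inhibitors CDKN1A and CDKN2B had 1.06 and 0.090 (limma BH adjusted p = 0.0521 and 0.846). FOXP3, the factor of regulatory T cells that TGF-beta can induce, was above background in 0 of 5 early and 4 of 5 late tumours, but background was also lower in late samples, and its means of 22.3 and 25.8 normalized counts did not pass the BH limit (log2 fold change -0.17, limma BH adjusted p = 0.699).

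The list drawn up for the Langerhans cell programme held 10 tested genes with a median log2 fold change of -0.32. Of these, 1 passed the BH limit in each direction. Not all 10 are particular to Langerhans cells, and their dependence on TGF-beta was not tested. FLT3, the receptor of a dendritic cell growth factor, had 2867, 962, 3117, 2349 and 2600 normalized counts in early tumours 1 to 5 and 349, 271, 708, 348 and 401 in late tumours 1 to 5. All early tumours exceeded all late tumours, and early 2 came nearest to them (log2 fold change 2.49, limma BY adjusted p = 0.0102). The FLT3 call was lost with DV200 as a covariate (limma BY adjusted p = 0.243) and with a replicate block (0.0517). IRF8, a factor of dendritic cells and B cells, was higher in late CCH (-1.43, limma BH adjusted p = 0.0150), although late 2 at 693 lay within the early range of 361 to 811, and it did not pass with DV200 as a covariate (limma BH adjusted p = 0.139). The other 8 genes did not pass, with log2 fold changes of 0.89, 0.76 and 0.27 for EPCAM, CD207 and CDH1 and of -0.67, -0.63, -0.45, -0.42 and -0.23 for IL34, CD1C, AXL, CSF1R and ITGAE (limma BH adjusted p from 0.0579 for CD1C to 0.789 for CDH1). ITGAE, the epithelial homing integrin subunit that TGF-beta induces in T cells, had means of 50.9 and 59.5 (limma BH adjusted p = 0.435).

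**Figure D4:**
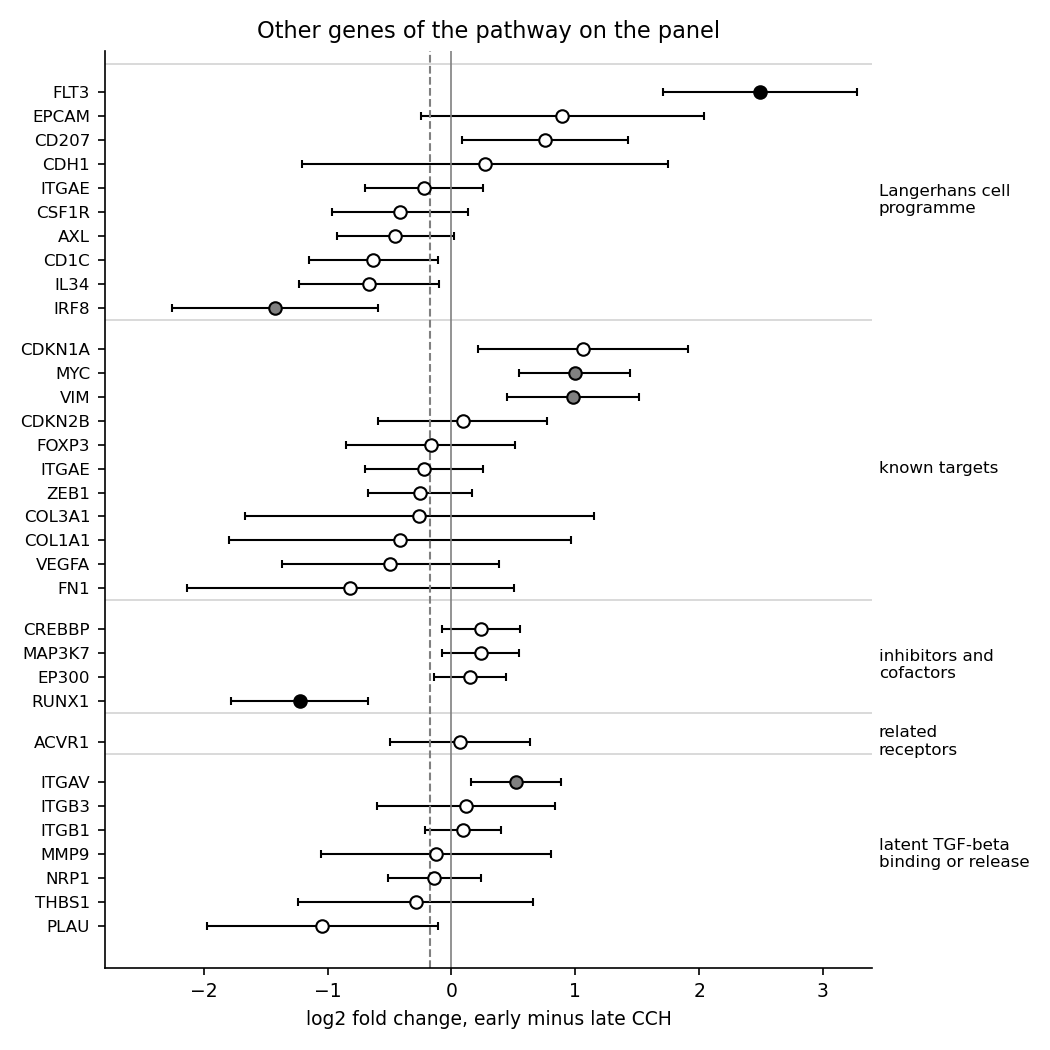
Log2 fold change, early minus late CCH (horizontal axis), with 95% intervals for the tested panel genes of the 5 pathway groups that had any, ITGAE being in 2 groups. Black points are called, grey points pass only the BH limit and open points pass neither, and the dashed line is the median of all tested genes (-0.18). RUNX1 and FLT3 are the black points, on opposite sides of 0.

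Lymphocyte markers moved with stage alongside SMAD3 and TGFB2. All 9 T cell markers passed the BH limit with higher levels in late CCH, with log2 fold changes from -3.23 for CD6 to -2.37 for CD2, and their summed level was 482 to 9164 normalized counts in early and 12347 to 20589 in late CCH. The sum was 482, 2712, 9164, 6289 and 1120 in early tumours 1 to 5 and 20132, 16696, 12347, 20589 and 16358 in late tumours 1 to 5. In the same order, SMAD3 was 33.85, 71.2, 67.9, 72.5 and 56.8 in early tumours and 285, 207, 198, 182 and 159.9 in late tumours. The early SMAD3 values lay at 1.55 to 2.09 times background. A relation of SMAD3 to the T cell sum within a stage was not tested. Of 6 B cell markers, 5 passed the BH limit higher in late CCH, with sums of 205 to 487 in early and 939 to 5450 in late CCH and the largest change in CD79A (-2.61). CD79B was above background in 0 of 5 early and 5 of 5 late tumours.

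The summed levels of the markers of the other cell types overlapped between the stages, although 6 single markers, THY1, CDH5, CD68, FLT3, FCER1A and MS4A2, did not. These were 1 of 5 stromal, 1 of 3 endothelial, 1 of 6 macrophage, 2 of 7 Langerhans cell and 1 of 7 neutrophil and mast cell markers. The regulatory T cell and keratinocyte lists had none, and over all tested genes 24.6% did not overlap. The sum of 5 fibroblast and stroma markers was 4880 to 37581 in early and 11985 to 32743 in late CCH, and 1 of the 5 passed the BH limit, THY1, which T cells of some species also carry and which was called higher in late CCH (-1.58). The sum of 3 endothelial markers was 1008 to 1595 and 727 to 1590, and 1 of the 3 passed, CDH5 (-0.98, limma BH adjusted p = 0.00808). CDH5 was above background in 2 of 5 early and 5 of 5 late tumours, where background was mostly lower in late samples. The 6 macrophage markers summed to 1787 to 6059 and 2867 to 5969, and 2 of the 6 passed, both higher in late CCH, CD68 (-1.29), which was called, and MSR1 (-1.67). The 7 Langerhans cell markers summed to 1727 to 5561 in early and 1423 to 1754 in late CCH, where early 2 alone lay within the late range, and 2 of the 7, FLT3 and FCER1A (2.44), were called higher in early CCH. The ranges were 450 to 1568 and 1021 to 2587 for 3 regulatory T cell markers, 733 to 5692 and 599 to 3981 for 4 keratinocyte markers, and 2060 to 38072 and 995 to 35962 for 7 neutrophil and mast cell markers. Of these, 0 of 3, 0 of 4 and 2 of 7 passed the BH limit, the last pair (CPA3 and MS4A2) higher in early CCH. In none of these 9 lists was a marker on the panel listed at 0 in any tumour. The part of these cell types in the SMAD3, TGFB2 and RUNX1 differences was not tested.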

How the data were processed

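Total RNA from 10 FFPE tumours was hybridised by the authors to probes of the nCounter Canine IO Panel, whose barcodes are counted without amplification. The deposited values are a linear signal, normalized by the authors in nSolver 4.0 to positive controls and then to housekeeping genes. The 14 control probes were left unscaled, and background subtraction was not stated. Values were whole multiples of 1 step per sample, within a tolerance of 0.0051, for at least 99.4% of genes. The steps served only for depth, counting error and background, and intervals from them cover counting error only.

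Log2(value + 1) of genes with a mean of at least 20 was fitted with limma 3.58.1 in R 4.3.3 (lmFit, eBayes with trend) on all 10 samples, without covariates. Late CCH was the baseline, with BY adjustment and a 2-fold limit, as in the study's methods. The study fitted its nCounter data otherwise, with the Advanced Analysis plug-in of nSolver. With BY adjustment it reported no differentially expressed gene on this platform for early against late CCH. The calls given here thus differ from that result. P-values measure the spread between tumours of different dogs. The fit was tested on simulated data. Ratios of value + 1 were compared by exact two-sided permutation. Alternatives changed the pseudocount, filter, scaling, variance model, covariate, block and samples. A background floor and background subtraction were chosen after seeing the data.

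The genes and lists were chosen with earlier results of these data known. Named genes are the 4 pathway genes, in each list those called or otherwise past the BH limit, the 3 nearest profiles, and extremes of the marker lists. IRF8 and other list genes were named after their values were seen. Symbols are those of the deposited table. Probe and gene sequences and coordinates were not used here. Figures were drawn with matplotlib 3.10.9.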

Additional observations from a re-analysis of the deposited data

Results flagged for a closer look

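The neutrophil and mast cell markers of late 2 summed to 35962 normalized counts, against 995 to 5556 in the other late tumours (gap over range 0.87), and SMAD3 and TGFB2 of that tumour were 207 and 88.5, inside the range of the other late tumours. This was the only one of 30 groups of 5 tumours checked (3.33%, where chance gives 5%) in which a tumour stood this far from the others, and none of the 4 pathway genes or their ratios did so in either stage.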

How the results depend on the processing

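The direction of SMAD3, TGFB2, SMAD2 and TGFB1 was the same in all 92 further fits, that is 13 settings and 10 fits without 1 tumour for each gene. The number of the 4 genes called was 1 in every one of these settings except 0 with DV200 as a covariate and 0 with a replicate block, and it was 2 when BH replaced BY with the 2-fold limit kept. The number past the BH limit was 1 with DV200 and otherwise 2 or 3, with SMAD2 added in some settings and with SMAD2 and TGFB1 in place of TGFB2 under geometric mean scaling and quantile normalization. Over the whole panel 85 genes were called, against 0 with DV200 (45 past the BH limit, 197 at an unadjusted p under 0.05 in limma), 1 with the replicate block, 188 with BH and the 2-fold limit, and 39 (without late 1) to 98 (without early 3) when 1 tumour was left out. Counts under 57 also occurred without early 5 (47), late 2 (48), late 4 (41) and late 5 (52). The calls split into 15 for early and 70 for late CCH with the deposited scaling and into 42 and 34 with the geometric mean, where 12 instead of 6 pathway list genes passed the BH limit. The cause was not tested. The replicate numbers pair no tumours, since they stand for different dogs, the correlation of same-numbered deviations ran from -0.20 to 0.16, and 1 of 5 early tumours was closest to its own number. With the replicate block SMAD3 had a BY adjusted p of 0.107 and a BH adjusted p of 0.0148. The RNA extraction batch, assigned by matching the study's sample list on stage, breed and age, as a random block had a negative estimated correlation (-0.14), with 118 genes called, and changed no call of the 4 genes. Signal over background limits TGFB2 and SMAD3 in early CCH.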
